A study of Mus musculus with 14 samples.

Results

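The genes described are 10 early response genes, taken from the table by their symbols: Fos, Jun, Junb and Jund, which encode subunits of the transcription factor AP-1, and Egr1, Nr4a1, Dusp1, Klf6, Cd69 and Bhlhe40. All 10 have a row in the deposited table of 14449 genes, and all 10 were among the 12329 genes tested. RNA had been measured with Smart-Seq2, a full-length method for low input, in regulatory T cells (CD4+ Foxp3-eGFP+ by sort) of BALB/c mice at postnatal day 35, with the lymph node as the source. There were 7 libraries from Il1rn-/- mice, which lack the secreted antagonist of the IL-1 receptor, and 7 from wild-type mice. The sample titles place 3 libraries of each genotype in a set a and 4 of each in a set b, letters that no label explains. Mice without Il1rn develop arthritis on this background, and the study looks at their regulatory T cells. Foxp3-eGFP marks every cell that expresses Foxp3, so thymic and peripherally induced regulatory T cells are both in the sort. Because the 10 genes were chosen with their levels in these 14 libraries known, every comparison of them is a description. Whether each library is a separate animal is not stated, so errors and tests measure the spread between libraries, which may be technical.

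Immediate early genes are transcribed within minutes of a stimulus, without new protein synthesis, because the factors that switch them on are already present in the resting cell. In T cells the stimulus is typically the antigen receptor, acting through calcium, Ras and MAP kinase signals. FOS proteins pair with JUN proteins to form AP-1, which binds DNA next to NFAT at many cytokine genes and, in regulatory T cells, shares sites with the BATF and IRF4 proteins. Dusp1, Nr4a1 and Klf6 are early genes outside AP-1, while CD69 is among the first surface proteins to appear on an activated T cell.

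Depth was 952021 to 3756559 reads per library, recovered as whole reads from the deposited log2 CPM (log2 of the counts per scaled library size). The libraries were of 3 kinds that cut across the genotypes. In 6 shallow libraries (Il1rn-/- 1-b and 2-b, wild-type 1-b to 4-b) Rn45s, the gene of the ribosomal RNA precursor, took 59.6% to 65.8% of reads, which left 384360 to 905988 reads in other genes. In 8 deep libraries Rn45s took 20.3% to 39.95%, which left 1654868 to 2805693. Of the deep libraries, 4 held transcripts of Y-linked genes at 374 to 808 reads (Il1rn-/- 3-b and 4-b, wild-type 1-a and 2-a), and 4 had 0 such reads (Il1rn-/- 1-a to 3-a, wild-type 3-a). The shallow libraries had 0 to 2. These kinds are called Y-positive deep, Y-negative deep and shallow below. They were defined from the data, not by the study, and all shallow libraries were of set b. Of the markers of T cells and regulatory T cells, Cd3d, Cd3e, Cd3g, Cd4, Foxp3, Il2ra, Ikzf2 and Ctla4 had reads in every library.

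Of the AP-1 subunits, Fos, Jun and Junb differed between all 3 kinds of library. Fos, the FOS subunit that is absent from most resting cells, was at 10.36 and 9.77 log2 CPM in the Y-positive deep libraries of Il1rn-/- mice, against 9.61 and 9.51 in those of wild type. In the Y-negative deep libraries it was at 7.35, 8.17 and 8.03 in Il1rn-/- and 7.61 in wild type. In the shallow libraries it was at 3.47 and 5.41 in Il1rn-/- and 4.56, 3.81, 5.83 and 5.20 in wild type. The 3 kinds of library did not overlap, and Il1rn-/- lay above wild type in the Y-positive kind, on either side of it in the Y-negative kind and across its range in the shallow kind. In reads, Fos ranged from 18 in Il1rn-/- 1-b to 4195 in Il1rn-/- 3-b. The log2 difference was 2.04 ± 0.40 for Y-positive against Y-negative deep libraries, a 4.10-fold difference, and 4.16 ± 0.47 for deep against shallow libraries, 17.9-fold (limma estimate ± SE with genotype in the model, here and below).

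Jun, the partner through which FOS proteins bind DNA, followed the same order. Its level was 9.83 and 9.57 log2 CPM in Il1rn-/- and 8.87 and 8.82 in wild type among the Y-positive deep libraries. The Y-negative deep libraries had 7.93, 7.94 and 7.92 in Il1rn-/- and 8.23 in wild type, a spread of under 1 log2 unit. Shallow libraries had 5.56 and 6.06 in Il1rn-/- and 5.97, 5.82, 6.22 and 5.63 in wild type. No 2 of the kinds overlapped, and the log2 difference was 1.31 ± 0.21 between the deep kinds and 2.77 ± 0.28 for deep against shallow.

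Junb, an AP-1 subunit that in T cells pairs with BATF as well as FOS, had the most reads of the 10 genes per kilobase of transcript, with a median of 524 CPM per kilobase over the 14 libraries against 84.9 for Fos and 76.2 for Jun (longest protein-coding transcript in GENCODE M21, whose build may not be the one the authors used). Y-positive deep libraries had 11.95 and 11.65 log2 CPM in Il1rn-/- and 11.34 and 10.88 in wild type. Levels in Y-negative deep libraries were 9.98, 10.17 and 9.99 in Il1rn-/- and 9.79 in wild type. Among shallow libraries they were 6.99 and 7.33 in Il1rn-/- and 6.95, 7.01, 8.50 and 7.08 in wild type, with wild-type 3-b more than 1 log2 unit above the rest. The differences were 1.52 ± 0.29 between the deep kinds and 3.42 ± 0.35 for deep against shallow.

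Jund, the JUN subunit best known for steady expression in resting cells, was close to the limit of detection. Among Y-positive deep libraries it had 5 and 9 in Il1rn-/- and 9 and 6 in wild type, counted in reads. The Y-negative deep libraries had 4, 20 and 18 in Il1rn-/- and 11 in wild type, and the shallow ones 7 and 4 in Il1rn-/- and 1, 5, 3 and 4 in wild type. Its median was 1.42 CPM per kilobase, the lowest of the 10 genes. All kinds of library overlapped. Its log2 difference between the deep kinds was -0.15 ± 0.66, with an interval of -1.54 to 1.23 that ends just short of the estimate for Jun. Its transcript has 67.2% G and C, above 99.9% of tested genes with an annotated coding transcript (11136 of 12329, median 49.95%). Junb, with 62.6%, stood above 99.0% of them, and the part of base composition in the level of Jund was not tested. Exons of Jun, Jund and Bhlhe40 are overlapped on the opposite strand by Junos, Gm11175 and 0610040F04Rik. No source used here gives the handling of strand, so reads of these 3 genes and of their antisense partners cannot be told apart.

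**Figure D1:**
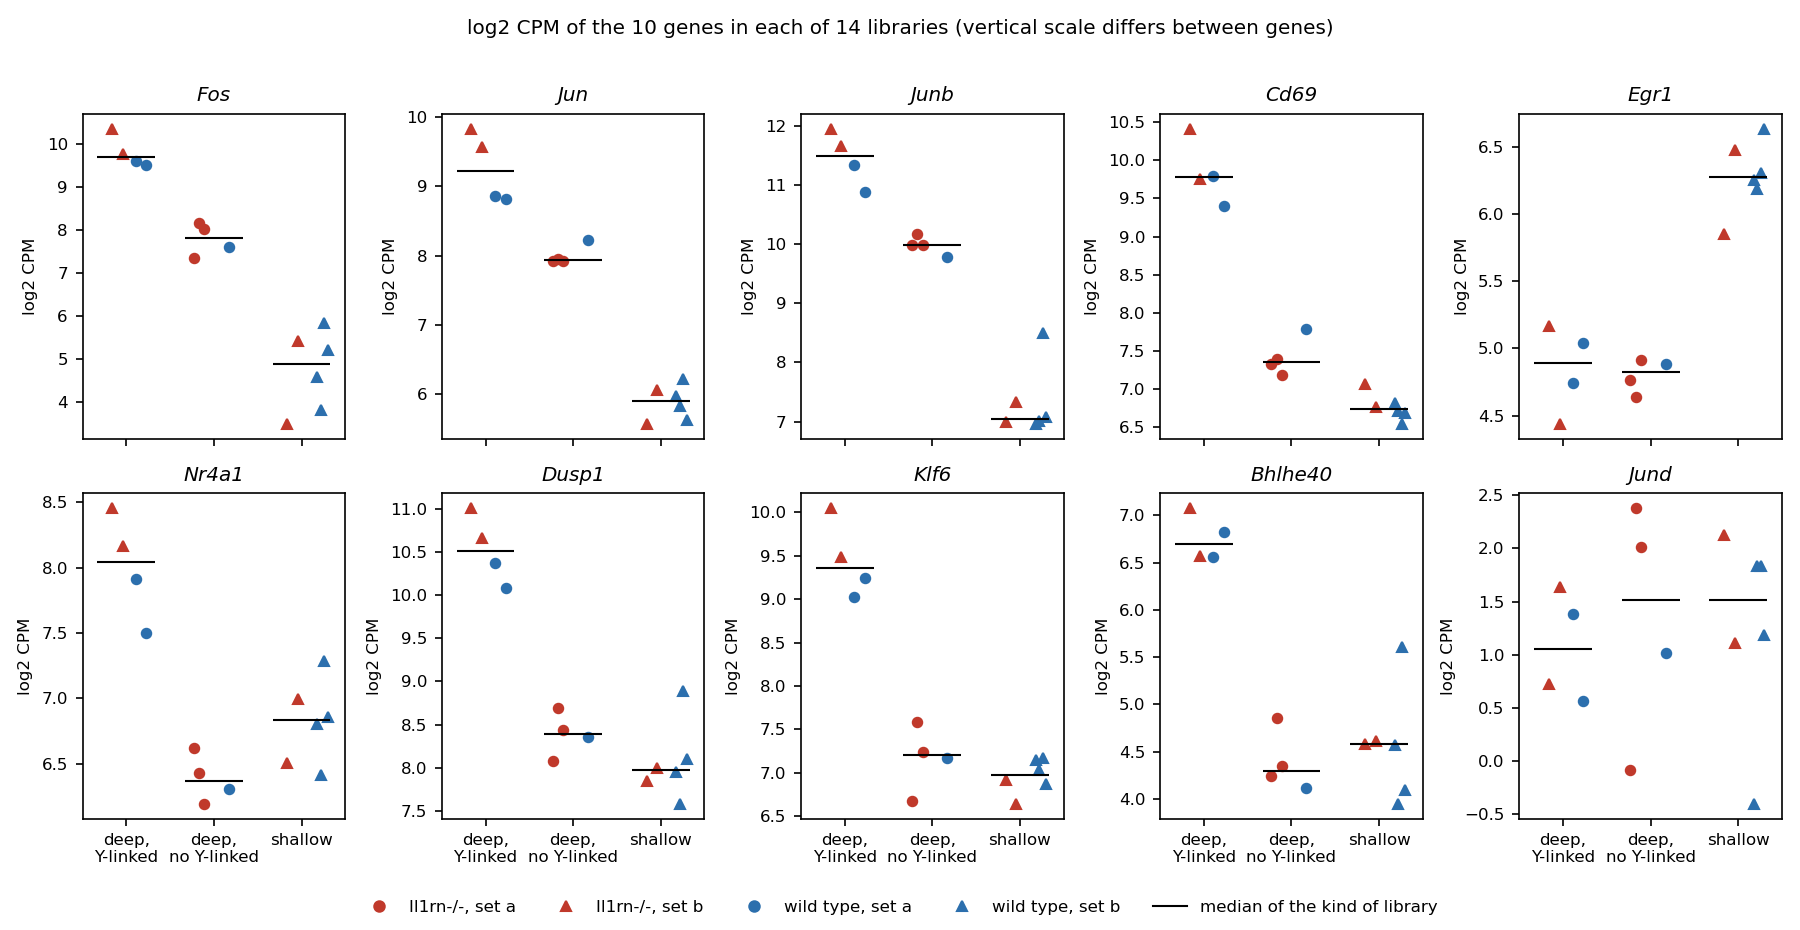
Each panel plots the log2 CPM of 1 gene in 14 libraries, grouped as Y-positive deep, Y-negative deep and shallow, with Il1rn-/- (red) left of wild type (blue), circles for set a, triangles for set b and a line at the median of each kind of library. In 8 of the 10 panels the 4 Y-positive deep libraries lie above the other 10, an order that 0.990% of tested genes had, Egr1 is highest in the shallow libraries, and Jund shows no separation.

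Among the other transcription factors, Nr4a1, the orphan nuclear receptor Nur77 whose level is used as a readout of antigen receptor signal strength, separated the Y-positive deep libraries from the rest, but not the Y-negative deep from the shallow ones. It stood at 8.46 and 8.16 log2 CPM in Y-positive deep libraries of Il1rn-/- mice and 7.92 and 7.50 in those of wild type. Y-negative deep libraries had 6.62, 6.43 and 6.19 in Il1rn-/- and 6.30 in wild type. With 6.50 and 6.99 in Il1rn-/- and 6.81, 6.41, 7.28 and 6.86 in wild type, the shallow libraries overlapped the Y-negative deep ones. The difference was 1.67 ± 0.21 between the deep kinds, 3.18-fold, and 0.41 ± 0.34 for deep against shallow.

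Klf6, a zinc finger factor of the Krüppel-like family, was at 10.05 and 9.49 log2 CPM in Il1rn-/- and 9.03 and 9.24 in wild type in Y-positive deep libraries. It was at 6.67, 7.59 and 7.24 in Il1rn-/- and 7.17 in wild type in Y-negative deep libraries, and at 6.92 and 6.64 in Il1rn-/- and 7.15, 7.04, 7.17 and 6.88 in wild type in shallow ones. Every library outside the Y-positive kind thus lay within 1 log2 unit of the others. Bhlhe40, a basic helix-loop-helix repressor induced by the antigen receptor, had 7.08 and 6.57 in Il1rn-/- and 6.55 and 6.83 in wild type in the Y-positive kind, and 4.25, 4.86 and 4.34 in Il1rn-/- and 4.11 in wild type in the Y-negative kind. In the shallow kind it had 4.58 and 4.61 in Il1rn-/- and 4.56, 3.95, 5.61 and 4.09 in wild type, with wild-type 3-b apart from the rest. Differences between the deep kinds were 2.30 ± 0.22 for Klf6 and 2.40 ± 0.29 for Bhlhe40, 4.94-fold and 5.29-fold.

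Egr1, a zinc finger factor that MAP kinase signals switch on through serum response factor, ran the other way. It had 5.16 and 4.43 log2 CPM in Il1rn-/- and 4.74 and 5.04 in wild type in Y-positive deep libraries. Its level was 4.76, 4.64 and 4.91 in Il1rn-/- and 4.88 in wild type in Y-negative deep libraries, inside the range of the Y-positive ones. Shallow libraries had 5.85 and 6.48 in Il1rn-/- and 6.25, 6.18, 6.31 and 6.63 in wild type, all above every deep library. The log2 difference was -1.42 ± 0.15 for deep against shallow and 0.01 ± 0.19 between the deep kinds, with an interval of -0.39 to 0.42. With 64 to 181 reads per library, Egr1 was not at the limit of detection. In bulk RNA, fewer cells that express a gene and less RNA per cell cannot be told apart.

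Dusp1, the phosphatase that shuts off MAP kinases and so limits the early response, was at 11.01 and 10.66 log2 CPM in Il1rn-/- and 10.38 and 10.08 in wild type in the Y-positive deep libraries. Y-negative deep libraries had 8.08, 8.70 and 8.43 in Il1rn-/- and 8.35 in wild type, and shallow ones 7.85 and 7.995 in Il1rn-/- and 7.95, 7.58, 8.89 and 8.10 in wild type. Of the shallow libraries, wild-type 3-b alone lay above all 4 Y-negative deep ones. Dusp1 differed by 2.17 ± 0.25 between the deep kinds and by 1.46 ± 0.43 between deep and shallow.

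Cd69, the lectin that holds lymphocytes in the lymph node by removing the sphingosine phosphate receptor from the surface, had the largest difference between the deep kinds of the 10 genes. Levels were 10.42 and 9.76 log2 CPM in Il1rn-/- and 9.79 and 9.40 in wild type in Y-positive deep libraries. Y-negative deep ones had 7.32, 7.39 and 7.18 in Il1rn-/- and 7.79 in wild type. Shallow libraries had 7.07 and 6.77 in Il1rn-/- and 6.82, 6.72, 6.54 and 6.68 in wild type, just below the Y-negative deep libraries and without overlap. Between the deep kinds Cd69 differed by 2.46 ± 0.19, 5.49-fold.

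Promoter sequence was looked at because 8 of these genes were high in the same 4 libraries. RefSeq promoters of build GRCm38.p6 are described for 7 of the 10 genes. None was at hand for Cd69 and Bhlhe40, and that of Egr1 is not reported here. Shown for 4 genes are the 250 bases before the annotated start, as examples that carry letters of elements known from early genes. Capitals mark matches on either strand to TGACGTCA (the cyclic AMP response element, CRE), to its first letters TGACGT, to TGANTCA (the consensus AP-1 element), to TGACATCA (a variant element known from Jun), to TGCGTCA (a variant element known from Nr4a1), to GCGNGGGCG (the EGR element), to AAAGGTCA (the NR4A element), to TATAAA, and to the CArG box of serum response factor. The 2 variant elements and the first letters of the CRE were added to the search after the sequences had been read. Fos lies at chr12:85473640-85473889 on the plus strand, Jun at chr4:95052223-95052472 on the minus strand, Nr4a1 at chr15:101266596-101266845 on the plus strand and Dusp1 at chr17:26508473-26508722 on the minus strand.
Fos: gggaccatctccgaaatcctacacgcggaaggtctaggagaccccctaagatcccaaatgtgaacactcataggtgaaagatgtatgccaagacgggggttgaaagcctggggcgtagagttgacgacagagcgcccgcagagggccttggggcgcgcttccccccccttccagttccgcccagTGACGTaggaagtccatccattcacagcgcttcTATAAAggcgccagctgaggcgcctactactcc
Jun: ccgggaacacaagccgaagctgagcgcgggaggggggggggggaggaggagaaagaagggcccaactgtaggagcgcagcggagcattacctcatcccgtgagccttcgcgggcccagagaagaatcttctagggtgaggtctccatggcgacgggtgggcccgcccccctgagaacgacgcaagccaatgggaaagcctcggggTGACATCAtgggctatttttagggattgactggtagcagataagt
Nr4a1: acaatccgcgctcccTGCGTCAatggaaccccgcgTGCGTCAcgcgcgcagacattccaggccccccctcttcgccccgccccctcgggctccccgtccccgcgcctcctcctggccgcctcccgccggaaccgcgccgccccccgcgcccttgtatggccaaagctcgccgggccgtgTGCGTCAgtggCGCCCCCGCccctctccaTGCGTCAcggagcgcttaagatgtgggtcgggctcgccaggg
Dusp1: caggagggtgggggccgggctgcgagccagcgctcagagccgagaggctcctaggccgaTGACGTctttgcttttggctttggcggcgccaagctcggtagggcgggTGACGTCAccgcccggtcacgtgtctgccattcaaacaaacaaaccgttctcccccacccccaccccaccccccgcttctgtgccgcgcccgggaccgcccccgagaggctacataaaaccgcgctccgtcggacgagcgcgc
Fos held TGACGT and TATAAA, Jun held TGACATCA, Nr4a1 held 4 copies of TGCGTCA and 1 EGR element on the opposite strand, and Dusp1 held a full CRE plus a separate TGACGT. Of 32851 mouse promoter windows of the same length, 6.47% held TGACGT, 2.93% TGACATCA, 1.75% TGCGTCA, 1.55% the CRE, 6.75% the AP-1 element, 4.70% the EGR element, 1.34% the NR4A element, 12.4% TATAAA and 1.47% a CArG box. TGACGT lies within every CRE. The window of Klf6 also held TGACATCA, while those of Junb and Jund held none of the letters. A match is a string of letters, not a measured site.

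Taken by their order across libraries, the genes fell into 3 patterns. Fos, Jun, Junb, Nr4a1, Dusp1, Klf6, Cd69 and Bhlhe40 had the 4 Y-positive deep libraries above the other 10, where 0.990% of tested genes did (122 of 12329), and so also above the Y-negative deep ones (2.34%). Of these 8, Fos, Jun, Junb and Cd69 also had every Y-negative deep library above every shallow one, against 12.6% of tested genes. Egr1 had all shallow libraries above all deep ones, against 6.56%. The 8 genes were grouped by having the 4 Y-positive deep libraries on top, so their highest library was bound to be among those 4. Of these, Il1rn-/- 3-b was the highest for 8 of the 8 genes. It also had the most mitochondrial ribosomal RNA, with mt-Rnr2 at 16.2% of reads outside Rn45s, against 8.68% to 11.2% in the other deep libraries and 2.82% to 4.01% in the shallow ones, and the part of this in the early genes was not tested. Wild-type 3-b, the library with the fewest reads, was the highest shallow library for 7 of the 8 genes, Cd69 being the exception. For neither library was the share of all tested genes computed, so both counts describe the libraries only.

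By limma 8 of the 10 genes passed an adjusted p of 0.05 as higher in Y-positive than in Y-negative deep libraries, where 0.316% of tested genes did (39 of 12329) and 0.0568% passed as lower. For deep against shallow libraries 7 of the 10 passed, 6 as higher and Egr1 as lower, where 36.1% of tested genes passed in either direction. Without wild-type 2-a Klf6 lost that call, and without wild-type 3-a Bhlhe40 gained it. Since the genes were chosen with these values known, the counts are given without further reading. Fos and Junb lost the call between the deep kinds without Il1rn-/- 1-a, 3-a, 3-b or 4-b or without wild-type 1-a or 3-a, with adjusted p up to 0.112 for Fos and 0.109 for Junb by limma, while the other 6 kept it with each of the 14 libraries left out. Recomputing CPM without Rn45s moved the median of all genes to -0.21, against -0.02 as deposited, and the calls to 27 higher and 15 lower, against 39 and 7. Without wild-type 3-a the calls were 27 higher and 31 lower, so the excess of higher calls did not hold without that library. With CPM recomputed without Rn45s, Fos (1.84, adjusted p 0.0776) and Junb (1.33, adjusted p 0.0688) also missed the threshold by limma. For deep against shallow libraries the same rescaling moved the median to -0.07, against 0.12 as deposited, and the calls to 1646 higher and 2645 lower, against 2464 and 1983.

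Between the deep kinds, genotype and letter are not balanced: both Y-positive Il1rn-/- libraries were of set b and all Y-negative ones of set a, so letter and kind cannot be told apart in Il1rn-/-. Wild-type set a alone held both kinds, 2 libraries against 1. In it the Y-positive libraries averaged 1.96 log2 units above wild-type 3-a for Fos, 1.32 for Junb, 1.87 for Dusp1, 1.96 for Klf6, 1.81 for Cd69, 2.58 for Bhlhe40 and 1.40 for Nr4a1. For Jun the gap was 0.61, for Egr1 0.01 and for Jund -0.04. These gaps have no replicate check.

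The study's own question, Il1rn-/- against wild type, gave no gene of the 10 past the threshold, and none of all tested genes (0.00%; limma voom also called 0). At an unadjusted p under 0.05 there were 679 genes by limma and 733 by limma voom. Over all libraries, with the letter in the model, Fos averaged 7.51 ± 2.40 log2 CPM in Il1rn-/- and 6.59 ± 2.35 in wild type (SD, n = 7 each). Its difference of 0.92 ± 0.87 has a 95% interval of -0.90 to 2.74. Junb averaged 9.72 ± 1.93 in Il1rn-/- and 8.79 ± 1.89 in wild type and differed by 0.93 ± 0.70. Jun averaged 7.83 ± 1.60 in Il1rn-/- and 7.08 ± 1.48 in wild type and differed by 0.75 ± 0.58. Egr1 averaged 5.18 ± 0.73 in Il1rn-/- and 5.72 ± 0.80 in wild type, a difference of -0.54 ± 0.24. The other differences were 0.35 for Jund, 0.31 for Cd69, 0.20 for Dusp1, 0.13 for Klf6, 0.08 for Bhlhe40 and 0.04 for Nr4a1. For none of the 10 genes did the 2 genotypes separate, an order that 0.00811% of tested genes had with Il1rn-/- above and 0.0243% with wild type above.

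Shown apart, the sets gave opposite signs for all of the 10 genes but Jund and Egr1. Jund was positive in both, at 0.45 ± 0.78 in set a and 0.29 ± 0.68 in set b. Egr1 was negative in both, at -0.12 ± 0.35 in set a and -0.86 ± 0.30 in set b. In set a the estimates were negative for 9 of 10 genes, at -1.69 ± 0.69 for Cd69, -1.35 ± 0.67 for Bhlhe40, -1.31 ± 0.68 for Klf6 and -1.06 ± 1.19 for Fos. In set b they were positive for 9 of 10, at 2.40 ± 1.03 for Fos, 2.10 ± 0.83 for Junb, 1.85 ± 0.67 for Jun and 1.82 ± 0.60 for Cd69. The difference between the sets was 3.51 ± 0.92 for Cd69, 3.46 ± 1.58 for Fos and 2.53 ± 0.90 for Klf6, and no gene of the table passed for it (0.00%; 968 at an unadjusted p under 0.05 by limma, smallest adjusted p 0.610). Neither set had a call (0.00% each; 243 and 1848 at an unadjusted p under 0.05 in set a and set b). Without Il1rn-/- 2-b, set b called 230 of 12329 genes, 113 as higher and 117 as lower. Among them were Cd69 as higher and Egr1 as lower. Wild-type set a and Il1rn-/- set b held the 4 Y-positive deep libraries, so each set's contrast sets some Y-positive libraries against none, in opposite directions, and set b also sets 2 deep and 2 shallow Il1rn-/- libraries against 4 shallow wild-type ones. In set a the Il1rn-/- libraries lay wholly below wild type for Jun and Cd69, an order that 3.61% of tested genes had (4.36% had the reverse). In set b the genotypes overlapped for all 10 genes, where 2.36% of tested genes had Il1rn-/- wholly above and 1.92% wholly below wild type. Set b against set a, with genotype in the model, differed by -2.33 ± 0.88 for Fos and 1.08 ± 0.24 for Egr1, the 1 gene of the 10 that passed, where 8.48% of tested genes passed as higher and 11.0% as lower. Without Il1rn-/- 3-b, or without Il1rn-/- 4-b, Fos, Jun and Junb passed as lower as well. In those fits 1639 and 1892 of 12329 tested genes passed as lower, against 1362 with all libraries.

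With the kind of library in the model in place of the letter, the genotype differences came to 0.04 ± 0.32 for Fos, 0.16 ± 0.17 for Jun, 0.19 ± 0.23 for Junb, 0.12 ± 0.20 for Dusp1, 0.09 ± 0.17 for Klf6, 0.14 ± 0.15 for Cd69, 0.15 ± 0.23 for Bhlhe40, 0.18 ± 0.16 for Nr4a1, 0.39 ± 0.52 for Jund and -0.13 ± 0.15 for Egr1, a model chosen after the data were seen. The standard error of Fos was 0.32 in that model, against 0.87 with the letter. The 95% interval was -0.18 to 0.46 for Cd69 and -0.62 to 0.71 for Fos. All 10 genes had the sign they had with the letter in the model. With deep and shallow libraries in the model but the deep kinds not told apart, 8 of the 10 signs turned, among them Fos to -0.27 and Cd69 to -0.24.

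**Figure D2:**
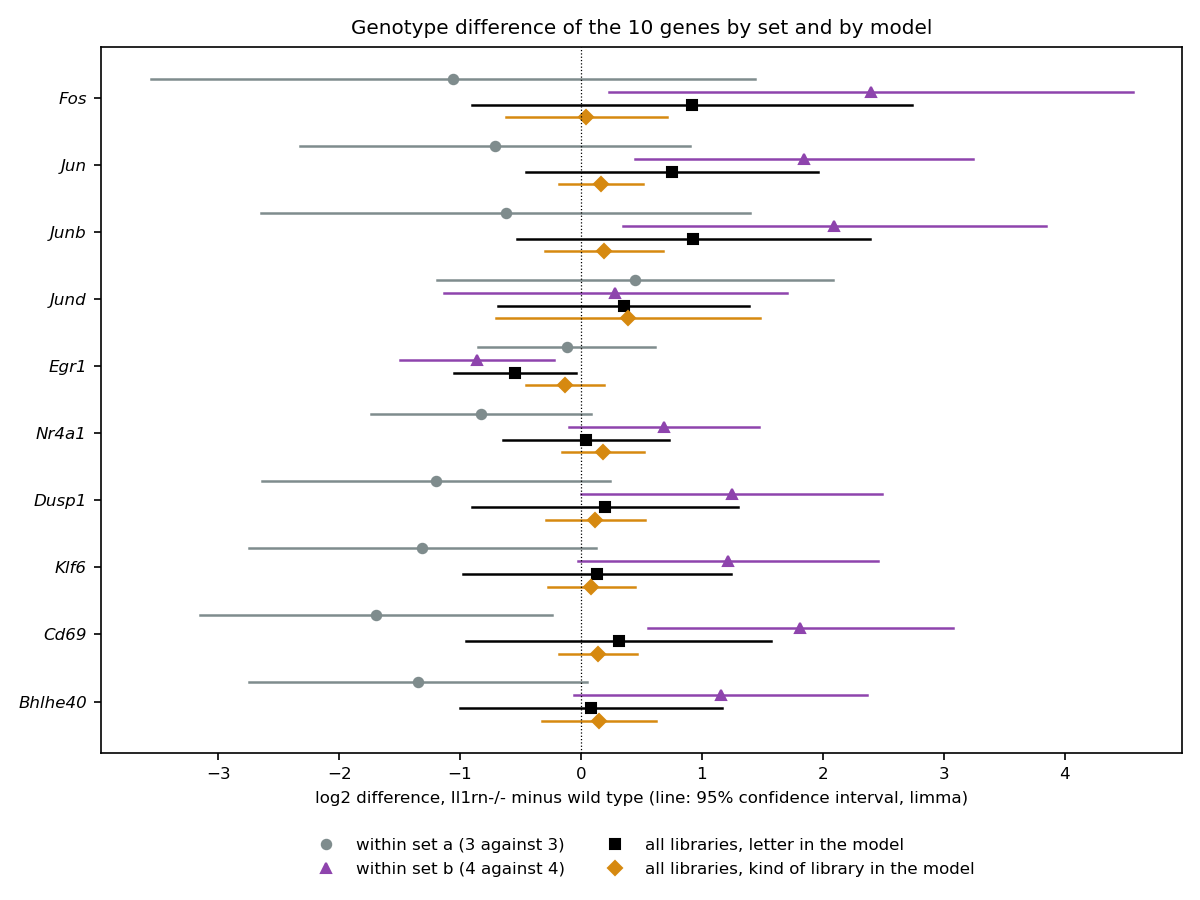
The log2 difference of each gene, Il1rn-/- minus wild type, is plotted with its 95% confidence interval within set a, within set b, over all libraries with the letter in the model, and over all libraries with the kind of library in the model. For Fos the 4 estimates are -1.06, 2.40, 0.92 and 0.04, and the intervals of the last model are the narrowest for every gene but Jund.

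Within the 6 shallow libraries, which all came from set b, Fos ran with Nr4a1 (Pearson's r 0.95, Spearman's rho 0.94) and Dusp1 (0.78 and 0.89), and Dusp1 with Nr4a1 (0.90 and 0.94) and Junb (0.93 and 0.71). Cd69 ran against Fos (r -0.77, rho -0.71) and Junb (-0.67 and -0.77). Over the 28 pairs of the 8 genes, r was -0.77 to 0.95 with a median of 0.58, was above 0.5 in 15, and changed sign in 10 of the 28 once the 2 libraries farthest from the median were left out. These correlations over 6 libraries of unequal depth describe the libraries only. No r between the genes of the group is given over the 8 deep libraries, because they form 2 clusters of 4.

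The genes most like each member were taken as those with the highest lower value of r over the 8 deep and the 6 shallow libraries, among 5157 other genes whose mean was at least 4 log2 CPM. For Fos they were Nfkbia, the inhibitor of NF-κB (r 0.94 deep, 0.89 shallow), and the protease gene Ctsz (0.81, 0.85), and for Jun Dpp9 (0.90, 0.89) and Tob2 (0.83, 0.96). Junb was closest to Csrnp1 (0.95, 0.95) and to Ppp1r15a, the stress-induced phosphatase subunit GADD34 (0.98, 0.85), and Dusp1 to the pseudokinase gene Trib1 (0.90, 0.93) and Csrnp1 (0.97, 0.87). Nr4a1 was closest to the MAP kinase phosphatase gene Dusp6 (0.85, 0.91) and Nfkbia (0.94, 0.84), Klf6 to Dusp10 (0.91, 0.91) and Csnk1a1 (0.84, 0.88), and Bhlhe40 to Tnfaip3, the NF-κB brake A20 (0.90, 0.94), and St13 (0.94, 0.88). Cd69 was closest to the co-stimulatory receptor gene Cd28 (0.89, 0.91) and Slc29a1 (0.87, 0.86), Egr1 to Smarcc1 (0.83, 0.90) and Ufc1 (0.80, 0.87), and Jund to Mfap3 (0.85, 0.89) and Donson (0.82, 0.95). Values over the deep libraries carry the gap between their 2 clusters. Each gene was picked as highest among 5157 over few libraries, and no chance level was computed, so these values describe the libraries only. Jund, which rests on 1 to 20 reads, reached values like those of the other members.

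Among 12 other tested genes of the AP-1 family (of 15 listed), Mafk, a small MAF protein, was the 1 that passed as higher in Y-positive deep libraries (1.21 ± 0.17) and 0 passed as lower, with a list median of 0.64 against -0.02 for all tested genes. Of all tested genes 0.316% passed as higher and 0.0568% as lower. Atf3, a stress-induced ATF subunit, had 27 and 15 reads in Il1rn-/- and 12 and 13 in wild type in that kind. Its reads were 0, 1 and 0 in Il1rn-/- and 4 in wild type in the Y-negative kind, and 0 and 0 in Il1rn-/- and 0, 0, 0 and 2 in wild type in the shallow kind. Fosb, the FOS paralogue, differed by 1.05 ± 0.32 between the deep kinds, which did not pass, and by 3.60 ± 0.30 for deep against shallow, which did. Batf, which partners JUNB in regulatory T cells, was at 0.07 ± 0.21 between the deep kinds and 0.28 ± 0.16 for deep against shallow, and passed in neither. For deep against shallow 5 of the 12 passed as higher (Fosb, Mafg at 2.07 ± 0.44, Atf4 at 0.92 ± 0.20, Mafk at 0.95 ± 0.25 and Atf3) and 0 as lower. Maf, at 0.75 ± 0.31, did not pass. For deep against shallow 36.1% of all tested genes passed in either direction, 2464 of 12329 as higher and 1983 as lower.

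Of 40 other tested immediate early genes (of 44 listed), 10 passed as higher in Y-positive than in Y-negative deep libraries and 0 as lower, against 0.316% and 0.0568% of all tested genes, with a list median of 0.84. They were the NF-κB inhibitors Nfkbia (1.73 ± 0.27) and Tnfaip3 (2.80 ± 0.41), the clock gene Per1 (1.41 ± 0.20), the phosphatases Dusp4 (1.22 ± 0.22) and Dusp10 (1.05 ± 0.22), the G protein regulator Rgs2 (1.97 ± 0.34), and Csrnp1 (1.98 ± 0.25), Ppp1r15a (1.66 ± 0.25), Trib1 (1.59 ± 0.24) and Gadd45b (1.67 ± 0.31). The other 30 did not pass. Among them Egr2, the paralogue of Egr1, was at -0.09 ± 0.23, Ier2 at -0.32 ± 0.27 and the MAP kinase phosphatase gene Dusp2 at -1.27 ± 0.43 (all 3 named after their values were seen). For deep against shallow libraries 12 of the 40 passed as higher and 8 as lower. In that comparison 36.1% of all tested genes passed in either direction, 2464 of 12329 as higher and 1983 as lower. Those with the smallest p were Ppp1r15a (2.90 ± 0.35), Gadd45b (2.48 ± 0.38), Rgs1 (1.49 ± 0.23), the RNA-destabilising Zfp36 (1.56 ± 0.24) and Cd83 (0.82 ± 0.14) among the higher, and the repressor Bcl6 (-1.83 ± 0.33) among the lower. For genotype 0 of these 52 related genes passed.

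**Figure D3:**
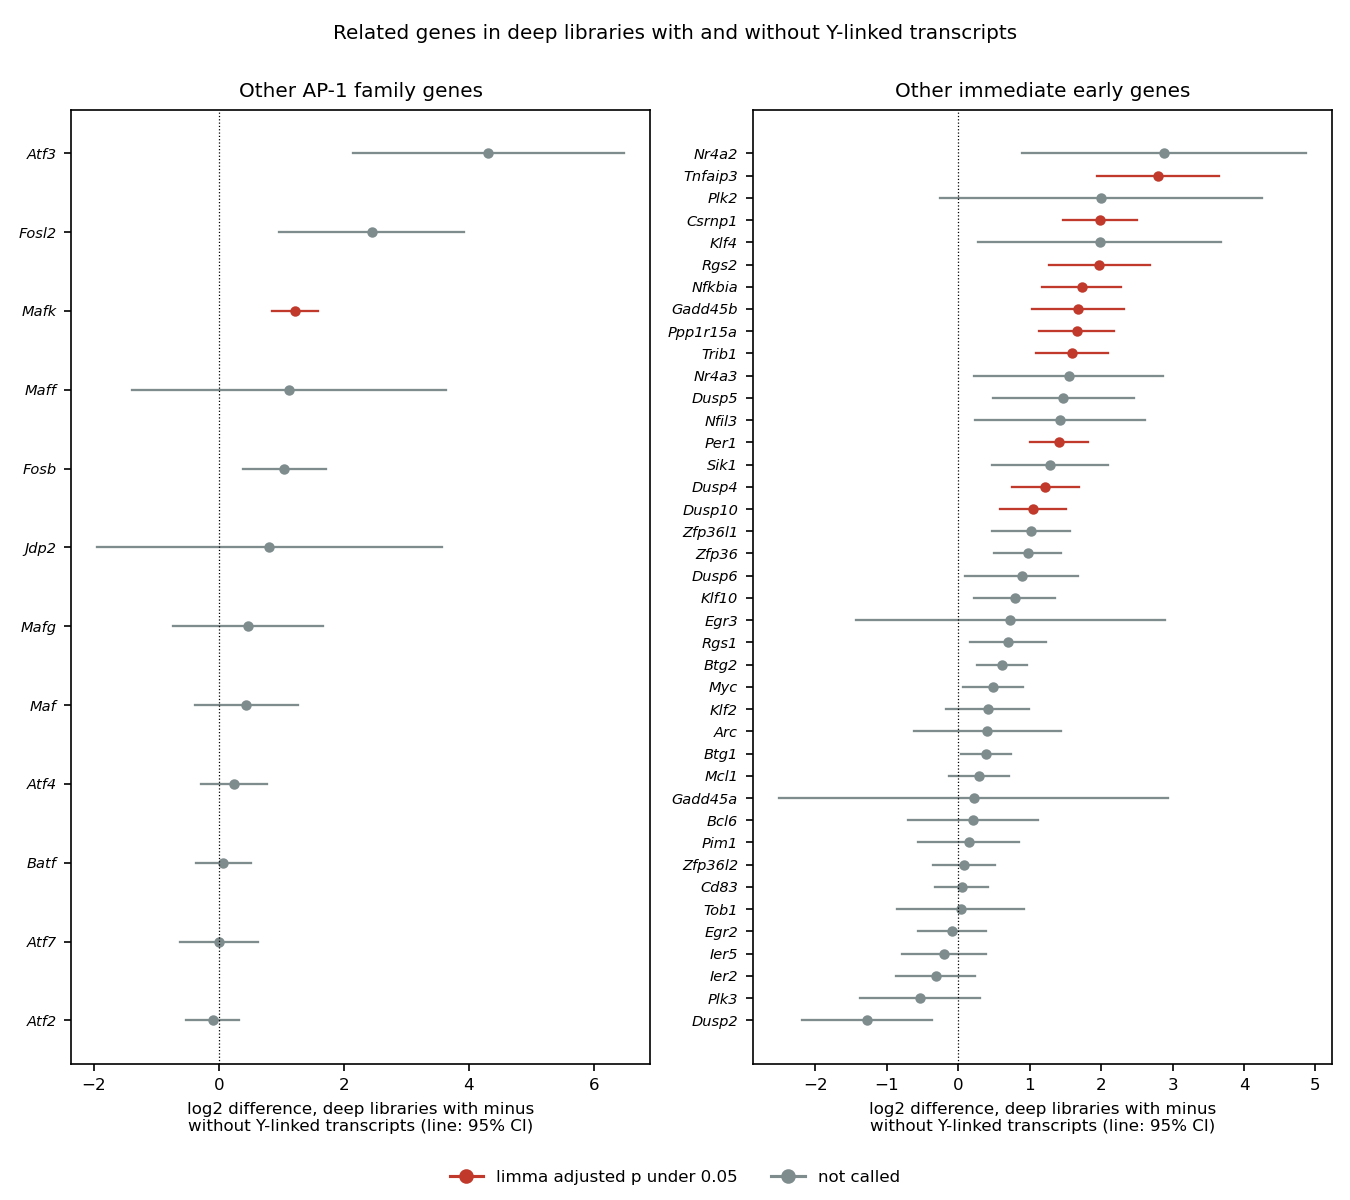
Log2 differences of 12 other AP-1 genes and 40 other immediate early genes, deep libraries with minus those without Y-linked transcripts, are plotted with 95% confidence intervals, and the 11 genes that passed limma's adjusted p of 0.05 are red. Tnfaip3, at 2.80, is the largest of the genes that passed, and Egr2 lies at -0.09.

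Of 26 kinases and factors that act before the early genes, 0 passed between the deep kinds, with a median of 0.03 (2 at an unadjusted p under 0.05 by limma). For deep against shallow 1 passed as higher and 8 as lower, among them the ETS factor Elk4 (-1.67 ± 0.20), the JNK kinase gene Map2k4 (-0.98 ± 0.19), the cofactors of serum response factor Mkl2 (-0.77 ± 0.16) and Mkl1 (-0.52 ± 0.12), and Map2k2 (-0.82 ± 0.20). Of 12 genes of the later response to the antigen receptor, 0 passed between the deep kinds (median 0.22, 3 at an unadjusted p under 0.05 by limma), and 4 passed as higher and 1 as lower for deep against shallow: Nfkbid (0.73 ± 0.18), Cd5 (0.47 ± 0.12), Icos (0.77 ± 0.22), Nfkbie (0.49 ± 0.14) and Nfatc1 (-0.40 ± 0.14). Tnfrsf4, at -0.44 ± 0.18, did not pass. The deep against shallow counts of both lists stand beside 36.1% of all tested genes that passed in either direction. Of those 12329 genes, 2464 passed as higher and 1983 as lower.

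Heat shock genes encode chaperones that cells make in response to damaged protein. Between the deep kinds all 11 estimates were positive, with a median of 1.03, and the chaperone genes Dnajb1 (1.32 ± 0.22) and Hsp90ab1 (1.03 ± 0.20) passed. Of all tested genes 0.316% passed as higher there. For deep against shallow 5 passed as lower, Hspa8 (-1.69 ± 0.23), Hspe1 (-1.41 ± 0.22), Dnaja1 (-1.24 ± 0.23), Hsp90aa1 (-0.95 ± 0.19) and Hspd1 (-0.73 ± 0.17), and 3 as higher. In that comparison 36.1% of all tested genes passed in either direction, 1983 of 12329 as lower and 2464 as higher. Hspa1a, whose reads cannot be told from those of its near-identical copy Hspa1b, had 23 and 27 reads in Il1rn-/- and 4 and 41 in wild type in the Y-positive deep kind. Its reads were 7, 12 and 9 in Il1rn-/- and 2 in wild type in the Y-negative kind, and 0 and 0 in Il1rn-/- and 1, 0, 0 and 0 in wild type in the shallow kind. For genotype 0 of the 11 passed, with a median of -0.32 against 0.04 for all tested genes, and 0 of the 26 kinases and factors and 0 of the 12 later genes did. What part a stress response has in the early genes was not tested. Nor was that of the sex of the donors, which no label gives. The deep kinds were split by Y-linked reads, so between them sex and kind of library cannot be told apart.

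Markers of other cells were low in every kind of library when set against those of T cells. The sum over 6 B cell markers was 14.8 to 51.2 CPM in Y-positive deep, 34.3 to 42.4 in Y-negative deep and 18.4 to 53.8 in shallow libraries, against 2219 to 2936, 1951 to 2368 and 2621 to 3228 CPM for the 8 T cell and regulatory T cell markers. Monocyte and macrophage markers (5 of 6 in the table) came to 7.41 to 18.5, 2.15 to 25.8 and 6.74 to 12.1 CPM, with Cd14 at a median of 0 reads. Markers of CD8 T and NK cells (5 of 6) came to 30.4 to 48.6, 26.1 to 35.4 and 27.9 to 64.7 CPM, and Klrb1c had a median of 0 reads. Plasma cell (3 of 4), dendritic cell (3 of 6), neutrophil (1 of 5) and red cell and platelet markers (2 of 4) reached 13.2, 4.94, 2.19 and 4.08 CPM at most, and stromal and endothelial markers (2 of 4) 64.6 to 107 CPM. By genotype the B cell sum was 14.8 to 42.4 CPM in Il1rn-/- and 20.9 to 53.8 in wild type. Ranges of the 3 kinds of library overlapped, apart from the T cell markers, which were lower in Y-negative deep than in shallow libraries, and the red cell markers, which had 0 reads in every shallow library. The part of these markers in the early genes was not tested.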

How the data were processed

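RNA of sorted regulatory T cells was measured in 14 Smart-Seq2 libraries. Per the labels' protocols the quantification used Cuffquant 2.2.1. TopHat2 2.0.10, BWA, Cuffnorm and Cufflinks 2.2.1 also stand in the submitters' processing notes. Build, annotation and strand handling: not given in the sources used here. The authors deposited log2 CPM, with a common lowest value of -3.58 for 0 reads. Whole reads were recovered from the steps on the linear scale (100% of them came out whole to a tolerance of 0.001), and scaling them by trimmed means of log ratios returned the deposited scaling.

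Genes above a CPM of 1 in at least 3 libraries were tested with limma 3.58.1 in R 4.3.3 (intensity trend, two-sided, Benjamini-Hochberg over 12329 genes at 0.05). Models had genotype with the letter, with 4 groups of genotype and letter, with library group (Rn45s above or below 50% of reads), or with the 3 kinds of library (Y-linked genes at 20 reads or more), the last chosen after seeing the data. Of the models, the fit of genotype with the letter was tested on simulated reads, which held no differences between the kinds of library. Python 3.11.15 and numpy 2.4.6 were used otherwise. The 10 genes, the lists and the tests were chosen with earlier results of these data known. Named were all 10, of each list the 6 with the lowest p for deep against shallow, and the 2 nearest genes of each member; 1 gene that this rule names is not reported here. Il1rn is not in the table analysed here, so the genotype labels were not checked by it. Alternatives covered filter, pseudocount, scaling, weights, voom, covariates and libraries left out.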

Additional observations from a re-analysis of the deposited data

Results flagged for a closer look

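Junb in wild-type 3-b stood at 8.50 log2 CPM, far from the other 3 wild-type libraries of set b, whose highest was 7.08. The gap to the nearest library was 0.921 of the group's range. Chance marks about 1 in 20 groups of this kind, and 4 groups were looked at for each of the 10 genes. The library had the fewest reads, 952021, and 311 reads of Junb.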

How the results depend on the processing

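The genotype comparison called 0 genes, with 0 in every library left out in turn, 2 with deep libraries only and 13 with shallow libraries only. With the replicate block it called 0 genes. Deviations of same-numbered libraries from the mean of their genotype and letter correlated at -0.29 to 0.06. Il1rn-/- set b and wild-type set a mix kinds of library, which enters these deviations. The check therefore cannot settle whether the replicate numbers pair the libraries. Within set a 0 genes were called, and 0 to 1 with a library left out. Within set b 0 were called, 3 with CPM without Rn45s, and 0 to 230 with a library left out, with the highest count when Il1rn-/- 2-b was left out, 7 when Il1rn-/- 1-b was and 3 when wild-type 1-b was. Between the letters 2408 were called, 4091 with library weights (Fos, Jun and Junb then lower too) and 1355 to 3376 with a library left out, the lowest without wild-type 2-a, with 1570 without wild-type 1-a. Between the deep kinds 46 were called (39 higher, 7 lower), 94 with library weights (56 higher, 38 lower), 92 with voom (68 higher, 24 lower) and 28 to 58 with a library left out, 28 without Il1rn-/- 4-b, 30 without Il1rn-/- 3-a and 58 without wild-type 3-a (27 higher, 31 lower). The cause of these shifts was not tested.

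The sign of the genotype difference turned for 6 of the 10 genes with library weights (Fos, Nr4a1, Dusp1, Klf6, Cd69 and Bhlhe40), for 5 without Il1rn-/- 3-b or without Il1rn-/- 4-b (Nr4a1, Dusp1, Klf6, Cd69 and Bhlhe40), for 2 with CPM without Rn45s (Nr4a1 and Bhlhe40), and for 7 in the 10 libraries without Y-linked transcripts. No gene of the 10 was called for genotype in any of these. A quasi-likelihood count model was planned and not run; voom was the model fitted to the recovered reads. Jund, at 1 to 20 reads, limits what can be said of it.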

Other observations

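Besides the early genes, AP-1 genes, heat shock genes and 4 Y-linked genes described above, 14 genes were higher in Y-positive than in Y-negative deep libraries by limma at an adjusted p of 0.05, and 7 were lower. Ctla4, the inhibitory receptor that regulatory T cells carry, stood at 8.70 to 9.10 log2 CPM in Y-positive deep, 7.62 to 8.36 in Y-negative deep and 7.28 to 7.63 in shallow libraries, a difference of 0.85 ± 0.17 between the deep kinds. Hspa5 and Dnajb9, chaperones of the endoplasmic reticulum, differed by 0.97 ± 0.16 and 1.89 ± 0.24. Nfkbiz, an atypical IκB protein, differed by 0.80 ± 0.17, the RhoGAP gene Tagap by 1.66 ± 0.16 and the lamin gene Lmna by 1.03 ± 0.18. Cxcr4, the receptor for CXCL12, stood at 4.96 to 5.46 log2 CPM in Y-positive deep, 2.97 to 4.31 in Y-negative deep and 5.37 to 6.67 in shallow libraries, so the shallow libraries reached above the Y-positive ones. Abcg1, a cholesterol exporter, was likewise highest in the shallow libraries, at 6.64 to 6.95 log2 CPM in Y-positive deep, 6.01 to 6.38 in Y-negative deep and 7.20 to 7.43 in shallow libraries. The others were Coq10b, Tgif1, Gem, Spty2d1, Ncam1 and P2ry10.

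Among the 7 lower genes, Xist, the RNA that silences an X chromosome in females, stood at -1.33 to 1.27 log2 CPM in Y-positive deep, 7.77 to 8.30 in Y-negative deep and 7.31 to 8.11 in shallow libraries. The other 6 were Osm (-1.26 ± 0.26), Micu2 (-1.20 ± 0.25), Nubp1 (-1.25 ± 0.25), Fance (-1.94 ± 0.39), Kcnn4 (-1.02 ± 0.20) and Arhgef1 (-1.09 ± 0.22). The genes are those past the threshold in a contrast defined after the data were seen.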
